A study of Mus musculus with 9 samples.

Results

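Chemokine receptors are G protein-coupled receptors that steer leukocytes along gradients of small secreted proteins, and a myeloid cell's set of receptors decides which of those signals it can follow. 8 receptor genes were chosen by name from the 53379 genes of a deposited expression table, namely Ccr1, Ccr2, Ccr3 and Ccr7, which bind CC chemokines, Cx3cr1, which binds fractalkine, Cxcr2 and Cxcr4, which bind CXC chemokines, and Ccrl2, an atypical receptor related to them. Classical monocytes leave the bone marrow through Ccr2, hematopoietic cells are held in the marrow through Cxcr4, and Cx3cr1 marks patrolling monocytes and many tissue macrophages (Mϕs).

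Transcripts were measured by RNA-seq in Mϕs grown from bone marrow (BM) of C57BL/6 mice, whose age and sex are not given in the sources used here. Every culture received CSF-1, the cytokine that drives Mϕ differentiation, at 10 ng/ml for 3 days and for a further 4 days. During those 4 days, 3 Control libraries had CSF-1 alone, 3 had added IL-4 at 10 ng/ml and 3 had added IL-6 at 100 ng/ml according to the sample labels. The published methods for these cultures give another IL-4 dose, and the published legends give other doses and a shorter treatment. IL-4 is a standard inducer of alternative Mϕ polarization, against which the effects of IL-6 on Mϕs were set. The cells came from unsorted BM, so that a library can hold RNA of other BM-derived cells.

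Each library held 29988160 to 39909571 fragments, as recovered from the steps of the FPKM values (fragments scaled by library size and by the combined length of all annotated exons of a gene). Comparisons between genes rest on that length, which can exceed that of the transcripts present. Labels were checked on textbook targets: Socs3, an IL-6-induced inhibitor, was 5.12 higher on the log2 scale with IL-6, and Arg1, an IL-4-induced enzyme, was 10.58 higher with IL-4 (limma, adjusted p = 3.02e-05 and 1.95e-06). All 7 Mϕ markers were detected in every group, with summed levels of 16537 to 18825 FPKM in Controls, 6006 to 7028 with IL-4 and 20053 to 21174 with IL-6, most of it from Lyz2. With IL-4, 4 of them (Csf1r, Adgre1, Fcgr1 and Lyz2) fell, and Itgam, at 37.2 to 72.3 FPKM against 33.7 to 36.8 in Controls, was higher in every library without a call. Cd68 (785 to 957 FPKM against 1311 to 1642) and Mertk (6.69 to 34.9 FPKM against 46.3 to 75.3) were lower in every library without a call, so that 6 of the 7 lay below all Controls, where 26.8% of all genes did. 2 features of the libraries bear on all values. IL-4 #3 stood apart from the other IL-4 libraries, with a root mean square log2 distance of 1.23 and 1.08 against 0.54 between the others. Transcripts of 16 intestinal genes summed to 80.0 to 102.7 FPKM in the Controls and 59.7 FPKM in IL-4 #1, but to 1.32 to 13.1 FPKM in the other 5 libraries. Nearly all of the sum in those 5 came from Lyz1 (1.31 to 12.9 FPKM), with 12 to 14 of the 16 genes at 0. For IL-6 against Control this difference and the treatment cannot be told apart. The same 5 libraries held the muscle transcripts Myh1, Myl1 and Mb, at 0.229 to 1.27 FPKM, which were at 0 in the Controls and IL-4 #1. Sums of 18 muscle genes overlapped, at 12.8 to 19.8 FPKM in the 5 and 4.04 to 13.6 FPKM in the rest. All results are from bulk RNA, in which fewer cells of a type and less RNA per cell cannot be told apart.

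All 8 receptor genes passed the filter of a mean of at least 0.5 FPKM over the 9 libraries. A gene counted as called where the limma adjusted p over 12824 genes was under 0.05 and the log2 fold change was 1 or more in either direction, on log2(FPKM + 0.1), a scale that understates changes of low genes. With IL-4, 6 of the 8 receptors were called, 1 higher (Ccr1) and 5 lower (Ccr3, Cx3cr1, Cxcr2, Cxcr4 and Ccrl2), where 13.9% of all tested genes were called, 5.02% higher and 8.89% lower (24.8% by adjusted p alone). The same 6 receptors were those whose IL-4 libraries did not overlap the Controls, against 40.3% of all genes (13.5% higher, 26.8% lower). With IL-6, 3 were called higher (Ccr1, Ccr2 and Cx3cr1) and 0 lower, where 5.38% of all genes were called, 3.49% higher and 1.89% lower. Without the fold threshold a further 1, Ccrl2, passed, as 8.4% of all genes did. Of the 5 receptors not called with IL-6, Cxcr4 and Ccrl2 were higher in all 3 libraries and Ccr3, Ccr7 and Cxcr2 overlapped the Controls, so that 5 of 8 did not overlap where 43.2% of all genes did not (20% higher, 23.2% lower). Between the cytokines, 6 receptors were called higher with IL-6 than with IL-4 and 0 lower, where 20.4% of genes were called, 13.6% higher and 6.82% lower (34.1% by adjusted p alone). The same 6 did not overlap, against 56.9% of all genes (36.3% higher, 20.6% lower). The median log2 fold change of the 8 was -1.42 with IL-4 (all tested genes, -0.20), 0.73 with IL-6 (all, -0.00) and 2.05 for IL-6 against IL-4 (all, 0.22). Since the median of all genes moved by -0.20 with IL-4, libraries were also rescaled by the median ratio, which changed the calls of all genes from 644 higher and 1140 lower to 834 higher and 874 lower, and those of the receptors to 1 higher and 4 lower. For IL-6 against IL-4 the rescaling changed 1738 higher and 875 lower to 1398 and 1165, and the receptors to 5 higher.

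**Figure D1:**
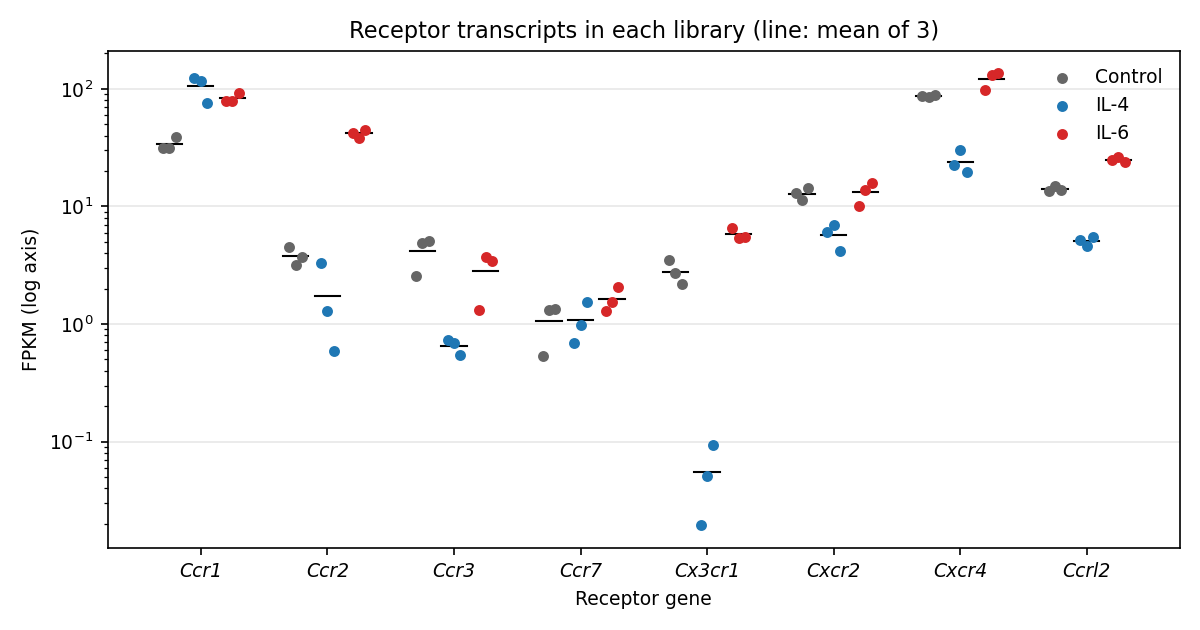
FPKM of the 8 receptor genes on a log axis in each of the 9 libraries, with a black line at the mean of the 3 libraries of a group. Ccr1 was higher in every IL-4 and IL-6 library than in any Control, Ccr2 was at 38.5 to 44.5 FPKM in the IL-6 libraries and at most 4.50 FPKM elsewhere, and Cx3cr1 was under 0.1 FPKM in all 3 IL-4 libraries.

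**Figure D2:**
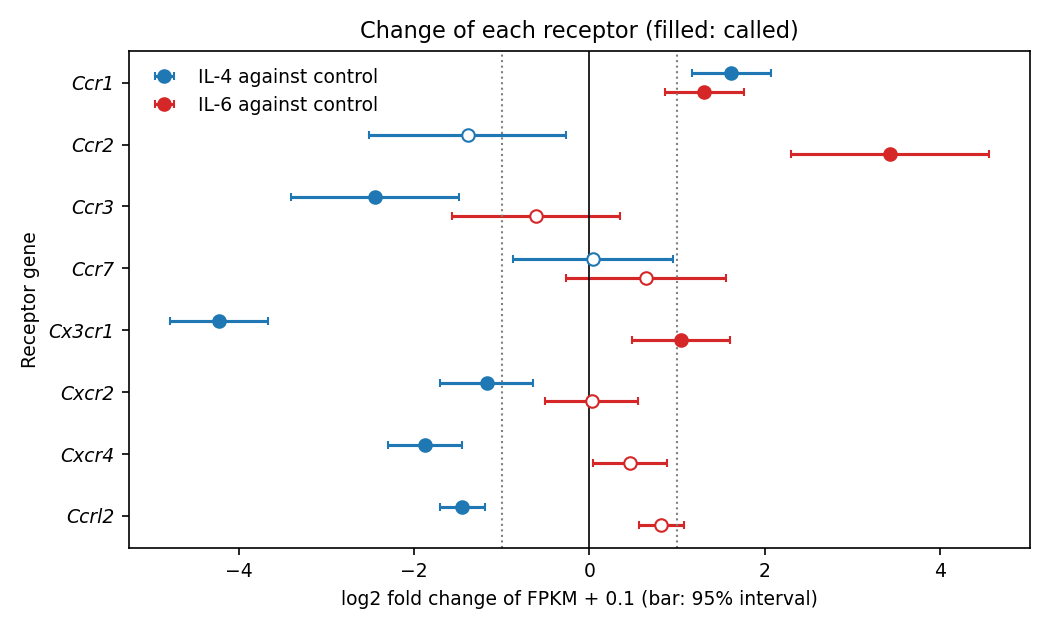
log2 fold change of FPKM + 0.1 for each receptor with IL-4 and with IL-6 against Control, with 95% intervals and filled points for calls. With IL-4 the points run from -4.23 for Cx3cr1 to 1.62 for Ccr1, and with IL-6 from -0.61 for Ccr3 to 3.43 for Ccr2.

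The first CC receptor is Ccr1 (ENSMUSG00000025804.5), through which monocytes and neutrophils respond to Ccl3, Ccl5, Ccl6 and Ccl9. It stood at 31.2, 31.2 and 38.9 FPKM in Controls #1 to #3, at 125, 116 and 76.5 FPKM with IL-4, whereas the IL-6 libraries had 79.5, 79.2 and 92.3 FPKM. Every treated library was above every Control, and IL-4 #3 was the lowest of all treated libraries. Ccr1 rose with IL-4 by 1.62 on the log2 scale (SE 0.20, n = 3 a group, limma adjusted p = 0.000697) and with IL-6 by 1.31 (SE 0.20, adjusted p = 0.00557). The cytokines did not differ past the threshold, with an IL-6 to IL-4 log2 difference of -0.31 and a 95% interval of -0.76 to 0.14. Where groups of 3 do not overlap, as here, the two-sided exact permutation p is 0.1, the smallest that 3 against 3 allow, and the tests across genes are given in its place from here on.

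Ccr2 (ENSMUSG00000049103.14) binds Ccl2, Ccl7 and Ccl12 and is required for monocytes to leave the marrow. Its FPKM was 4.50, 3.18 and 3.75 in Controls, 3.30, 1.28 and 0.586 with IL-4, whereas the IL-6 libraries had 42.4, 38.5 and 44.5. The 3 IL-6 libraries lay far above all others and close to each other, whereas IL-4 #1 lay within the Control range and the other IL-4 libraries lay below it. Ccr2 rose with IL-6 by 3.43 (SE 0.49, adjusted p = 0.00443), from a mean of 3.81 ± 0.664 to 41.8 ± 3.07 FPKM (SD, n = 3, limma), 10.97 times the Control mean. With IL-4 the log2 difference was -1.39 (95% interval -2.52 to -0.26, adjusted p = 0.0737), which is not a call; without IL-4 #1 it was -1.99 (adjusted p = 0.00322), without IL-4 #3 it was -0.84 (adjusted p = 0.0861), and with the library set as a term it was -0.19 (adjusted p = 0.858). With that term the IL-6 value of Ccr2 was 5.24 (adjusted p = 0.00559). Of the 50-base stretches of Ccr2, 1.91% also occur in another gene, and in the 8 genes this share went up to 4.01%, in Cxcr2. All 5 markers of inflammatory monocytes (Ly6c2, Plac8, F13a1, Hp and Vcan) rose with IL-6, and 3 of them (Ly6c2, F13a1 and Hp) fell with IL-4. Their summed level was 75.7 to 102 FPKM in Controls, 21.4 to 29.5 with IL-4 and 399.7 to 433 with IL-6, with none at 0 in all libraries of a group. Most of the IL-6 sum came from Hp and F13a1, at means of 232 and 89.0 FPKM. The published text counts F13a1 among markers of alternative Mϕ polarization that rose with IL-6, and which cells its RNA came from was not tested. The part of such cells in the Ccr2 values was not tested.

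Ccr3 (ENSMUSG00000035448.9) is the eotaxin receptor, best known from eosinophils and basophils. It was at 2.56, 4.87 and 5.07 FPKM in Controls, 0.733, 0.686 and 0.544 with IL-4, whereas the IL-6 libraries had 1.31, 3.72 and 3.46. All IL-4 libraries lay below the rest, on 68 to 82 fragments each, and the IL-6 libraries overlapped the Controls. Ccr3 fell by 2.45 on the log2 scale with IL-4 (SE 0.42, limma adjusted p = 0.00399). With IL-6 the difference was -0.61 (interval -1.57 to 0.35, adjusted p = 0.479), and IL-6 was 1.84 above IL-4 (adjusted p = 0.0112). The library numbered 1 was the lowest in Control and in IL-6 but the highest in IL-4. Of 5 eosinophil genes, Prg2 and Prg3, which encode granule major basic proteins, fell with both cytokines, Prg2 from 120.0 to 14.5 FPKM with IL-4 and to 20.9 FPKM with IL-6. The summed level of the 5 was 69.9 to 163.9 FPKM in Controls, 16.2 to 22.0 with IL-4 and 18.6 to 28.1 with IL-6, most of it from Prg2. That sum was lowest in the library numbered 1 in Control and IL-6, as Ccr3 was, and as Actb and Gapdh were. Prg3 and Epx were also lowest there, Siglecf only in Control and Il5ra in neither. Siglecf was at 1.28 to 1.40 FPKM in Controls, 1.41 to 4.03 with IL-4 and 0.878 to 1.07 with IL-6, not called against Control. The defining genes Epx and Il5ra were low in all groups. Epx had means of 1.13 FPKM in Controls, 0.405 with IL-4 and 0.192 with IL-6. Every treated library was below every Control in Epx, as in 26.8% of all genes with IL-4 and 23.2% with IL-6. Il5ra was at 0.0314 to 0.129 FPKM as group means. Of 6 basophil and mast cell genes, 5 (Mcpt8, Cpa3, Fcer1a, Gata2 and Ms4a2) rose with IL-4 and Kit fell, from 0.838 to 0.309 FPKM, with summed levels of 6.60 to 12.9 FPKM in Controls, 31.3 to 48.6 with IL-4 and 4.03 to 10.6 with IL-6. The part of either cell type in Ccr3 was not tested.

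Ccr7 (ENSMUSG00000037944.8) guides dendritic cells and lymphocytes to lymph nodes along Ccl19 and Ccl21, and it was the least abundant of the 8 in Controls and with IL-6. It was at 0.536, 1.31 and 1.34 FPKM in Controls, 0.695, 0.984 and 1.55 with IL-4, whereas the IL-6 libraries had 1.29, 1.55 and 2.07, on 37 to 126 fragments a library. All groups overlapped, and the library numbered 1 was the lowest in each. The log2 differences were 0.04 with IL-4 (interval -0.87 to 0.95, limma adjusted p = 0.945) and 0.65 with IL-6 (interval -0.26 to 1.56, adjusted p = 0.42). Of 8 dendritic cell genes 3 were tested, of which Fscn1 rose with IL-6 and Siglech fell with IL-4, and their summed level was 1.94 to 8.48 FPKM over all libraries. Of 7 lymphocyte genes, none of the 4 tested was called, with sums of 9.94 to 25.1 FPKM.

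Ccr1, Ccr3 and Ccr2 are neighbours in the CC receptor cluster of chromosome 9, together with Ccr1l1. In the GENCODE M21 annotation of GRCm38, Ccr1 lies at chr9:123962124-123968692 on the minus strand, Ccr3 at chr9:124021972-124031689 and Ccr2 at chr9:124101950-124113557, both on the plus strand. Ccr3 begins 59.8 kb and Ccr2 139.8 kb from the lower end of Ccr1. In genomic order, the IL-4 values therefore ran higher for Ccr1, lower for Ccr3 and not called for Ccr2. With IL-6 they ran higher, not called and higher. Cx3cr1 and Ccrl2 lie elsewhere on the same chromosome, Cxcr2 and Cxcr4 on chromosome 1 and Ccr7 on chromosome 11.

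**Figure D3:**
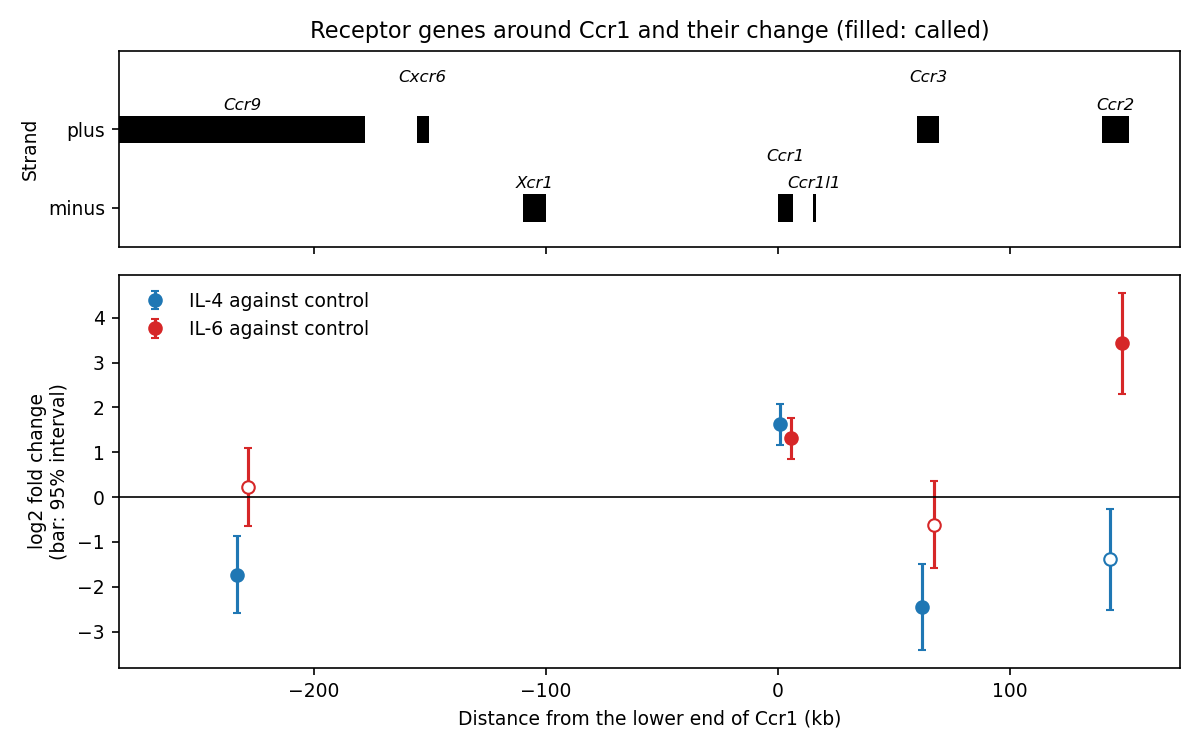
Upper panel, receptor genes around Ccr1 on chromosome 9 by strand and distance in kb from the lower end of Ccr1; lower panel, log2 fold change with 95% interval of those tested, IL-4 and IL-6 against Control, filled where called. Ccr1 was higher with both cytokines, at 1.62 and 1.31, while Ccr3 was at -2.45 with IL-4 and -0.61 with IL-6, and Ccr2 at -1.39 and 3.43.

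Promoters are shown for Ccr1 and Ccr3, neighbours that went in opposite directions with IL-4, and for Cxcr4, the most abundant receptor of Control Mϕs, because their 250 bases before the start hold no annotated exon. They come from RefSeq's GRCm38.p6 table, which matched 7 of the 8 genes and had none for Ccr7. Capitals mark GAGGAA, the core of ETS factor sites such as that of PU.1, and TATAAA, the TATA box, found on either strand.
Ccr1, chr9:123968693-123968942, minus strand: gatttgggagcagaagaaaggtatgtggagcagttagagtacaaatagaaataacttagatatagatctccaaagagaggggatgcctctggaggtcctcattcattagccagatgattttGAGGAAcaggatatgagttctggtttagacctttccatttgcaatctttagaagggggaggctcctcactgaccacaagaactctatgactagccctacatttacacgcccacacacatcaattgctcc
Ccr3, chr9:124021721-124021970, plus strand: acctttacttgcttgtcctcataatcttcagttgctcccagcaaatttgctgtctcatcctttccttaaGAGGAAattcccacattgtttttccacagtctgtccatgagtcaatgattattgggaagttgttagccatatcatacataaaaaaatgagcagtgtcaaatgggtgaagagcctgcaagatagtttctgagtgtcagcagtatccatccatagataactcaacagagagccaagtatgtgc
Cxcr4, chr1:128592300-128592549, minus strand: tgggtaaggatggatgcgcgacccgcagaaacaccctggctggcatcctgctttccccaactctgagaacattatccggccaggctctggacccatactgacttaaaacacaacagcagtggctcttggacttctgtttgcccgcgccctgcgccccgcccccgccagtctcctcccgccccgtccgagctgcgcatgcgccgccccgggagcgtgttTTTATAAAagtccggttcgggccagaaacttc
GAGGAA is in both CC receptor sequences shown, once in each and on the plus sense of the gene, and in 23.2% of the 32851 promoter windows of 250 bases. Of the other sequences, that of Cxcr2 also holds it, on the other strand, and those of Ccr2, Ccrl2, Cx3cr1 and Cxcr4 do not. TATAAA is in that of Cxcr4, where the 2 overlapping matches begin 32 and 30 bases before the start, and in 12.4% of all windows. The letters TTC and GAA with 3 or with 4 bases between them, which STAT factors can bind, were in none of the windows of 300 bases (250 before the start and 50 after) of the 7 genes, against 8.30% and 6.95% of all windows. ACGTG, the core of hypoxia response elements, was in the windows of Ccrl2 and in 19.6% of all. A match is a description of letters, and a window with no match says nothing of a factor's binding elsewhere. GC content was 43.6% for Ccr1, 40.4% for Ccr3 and 61.2% for Cxcr4.

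Cx3cr1 (ENSMUSG00000052336.7) binds the membrane-tethered chemokine fractalkine. Its FPKM was 3.48, 2.70 and 2.202 in Controls, 0.0195, 0.0513 and 0.0946 with IL-4, whereas the IL-6 libraries had 6.52, 5.38 and 5.49. The 3 groups did not overlap, and the IL-4 libraries held only 3, 7 and 17 fragments, against 348 to 547 in Controls. The Control mean was 50.7 times the IL-4 mean, and in the fit Cx3cr1 fell by 4.23 on the log2 scale (SE 0.25, limma adjusted p = 1.4e-05). The size rests on the pseudocount, at -1.83 with 1 and -5.59 with 0.01. With IL-6 Cx3cr1 rose from 2.79 ± 0.643 to 5.79 ± 0.629 FPKM (SD, n = 3), a log2 change of 1.04 (SE 0.25, limma adjusted p = 0.0363) that is just above the fold threshold. That call was lost in 12 of 20 alternatives, among them the replicate block (adjusted p = 0.0833) and leaving out Control #2 (adjusted p = 0.131), Control #3 (0.156), IL-4 #2 (0.0565), IL-6 #1 (0.150), IL-6 #2 (0.112) or IL-6 #3 (0.118). With the library set as a term the IL-6 value was 0.52 (adjusted p = 0.393). The exons of Cx3cr1 share 78 bases with Gm33858 on the other strand, and whether the authors' counting used strand is not given in the sources used here.

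Among the CXC receptors, Cxcr2 (ENSMUSG00000026180.8) binds the neutrophil-attracting chemokines. It was at 12.96, 11.3 and 14.2 FPKM in Controls, 6.09, 7.004 and 4.18 with IL-4, whereas the IL-6 libraries had 10.1, 13.8 and 15.8. Every IL-4 library lay below every Control, and the IL-6 libraries spanned the Control range. Cxcr2 fell by 1.17 on the log2 scale with IL-4 (SE 0.23, limma adjusted p = 0.0077), while the IL-6 difference was 0.03 (interval -0.51 to 0.56). The IL-4 call was lost without IL-4 #3 (-0.96) and with median-ratio rescaling (-0.97), where the fold fell under the threshold but not the adjusted p. Of 10 neutrophil genes, 9 fell with IL-4 (S100a8, S100a9, Camp, Ngp, Ltf, Mpo, Elane, Retnlg and Mmp8) and Mmp8 rose with IL-6. Their summed level was 4986 to 8845 FPKM in Controls, 2222 to 4150 in IL-4 and 8134 to 11308 in IL-6 libraries. The library numbered 1 was the lowest of Controls and IL-6 in this sum, and IL-6 #1 also of Cxcr2 with IL-6. IL-4 #3, the lowest in Cxcr2 with IL-4, was the highest in the sum. Most of that sum came from S100a8 and S100a9, at 933 and 2724 FPKM in IL-4 #3. Among the IL-4 libraries, Ly6g, Camp and Retnlg were also highest in IL-4 #3, Elane lay between, and Ngp, Ltf, Mpo and Mmp8 were lowest there. The part of neutrophil RNA in Cxcr2 was not tested.

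Cxcr4 (ENSMUSG00000045382.6) is the receptor of Cxcl12, which retains cells in the marrow. Its FPKM was 87.0, 85.9 and 88.6 in Controls, 22.4, 30.1 and 19.7 with IL-4, whereas the IL-6 libraries had 97.6, 131 and 135. Controls had an SD of 1.35 FPKM, every IL-4 library was far below and every IL-6 library above them. Cxcr4 fell by 1.88 with IL-4 (SE 0.19, limma adjusted p = 0.000242). The IL-6 difference of 0.46 (interval 0.04 to 0.89) did not pass (adjusted p = 0.197), although 3 of 3 libraries were higher, as were 20% of all tested genes. The spread in this fit is shared with the IL-4 libraries. With only Control and IL-6 libraries fitted, the SE was 0.13 in place of 0.19 (limma adjusted p = 0.0524).

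Ccrl2 (ENSMUSG00000043953.12) binds the attractant chemerin without G protein signalling and can present it to Cmklr1, the chemerin receptor that signals. It was at 13.6, 14.9 and 13.8 FPKM in Controls, 5.21, 4.61 and 5.49 with IL-4, whereas the IL-6 libraries had 24.6, 26.2 and 24.0, the tightest within-group values of the 8 in the IL-4 libraries. The 3 groups were separate, with IL-4 lowest and IL-6 highest. Ccrl2 fell by 1.45 with IL-4 (SE 0.11, limma adjusted p = 6.1e-05). With IL-6 it was 0.82 higher (SE 0.11, adjusted p = 0.0035), a change that missed only the fold threshold. Cmklr1 itself ran 30.3, 24.3 and 26.2 FPKM in Controls, 12.01, 9.59 and 3.02 in IL-4 libraries, and 58.1, 52.8 and 52.2 in IL-6 libraries. Its fall with IL-4 was called (-1.91, limma adjusted p = 0.0147), and its IL-6 difference of 1.02 was not (adjusted p = 0.232). Gpr1, another chemerin receptor, was listed at 0 in all libraries.

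The receptors differed in level, and the order changed with treatment. Levels are per combined exon length, which is 6760 bases for Ccr2 and 3272 for Ccr3. In Controls Ccr2 held more fragments than Ccr3 (644 to 1062 against 292 to 582) though its FPKM mean was lower. In Controls the order by mean FPKM was Cxcr4 (87.1), Ccr1 (33.8), Ccrl2 (14.1), Cxcr2 (12.8), Ccr3 (4.17), Ccr2 (3.81), Cx3cr1 (2.79) and Ccr7 (1.06). The ranges of Ccrl2 and Cxcr2, of Ccr3 and Ccr2, and of Ccr2 and Cx3cr1 overlapped. With IL-4 Ccr1 came first (106 FPKM) before Cxcr4 (24.1), Cxcr2 (5.76), Ccrl2 (5.10), Ccr2 (1.72), Ccr7 (1.07), Ccr3 (0.654) and Cx3cr1 (0.0551), with overlap between Cxcr2 and Ccrl2, Ccr2 and Ccr7, and Ccr7 and Ccr3. With IL-6 the order was Cxcr4 (121), Ccr1 (83.7), Ccr2 (41.8), Ccrl2 (24.9), Cxcr2 (13.2), Cx3cr1 (5.79), Ccr3 (2.83) and Ccr7 (1.64), and only the last pair overlapped.

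As a share of the summed FPKM of the 8, Cxcr4 made up 54.6% ± 1.64 in Controls, 16.9% ± 2.70 with IL-4 and 40.9% ± 3.50 with IL-6 (SD, n = 3). Ccr1 made up 21.1% ± 1.79, 73.0% ± 3.06 and 28.4% ± 1.89, and Ccr2 2.39% ± 0.443, 1.12% ± 0.793 and 14.2% ± 1.68. Ccr1 thus took the place of Cxcr4 as the most abundant receptor in each IL-4 library, and Ccr2 was the receptor whose share grew most with IL-6. The ratio of Ccr1 to Cxcr4 was 0.387 ± 0.0451 in Controls, 4.43 ± 0.969 in IL-4 and 0.700 ± 0.107 in IL-6 libraries. The sum itself was 159.7 ± 7.14 FPKM in Controls, 144 ± 30.8 in IL-4 and 295 ± 30.0 in IL-6 libraries. The IL-4 sum included 109 FPKM in IL-4 #3 and 161 to 163 FPKM in the others, and every IL-6 sum was above every other.

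**Figure D4:**
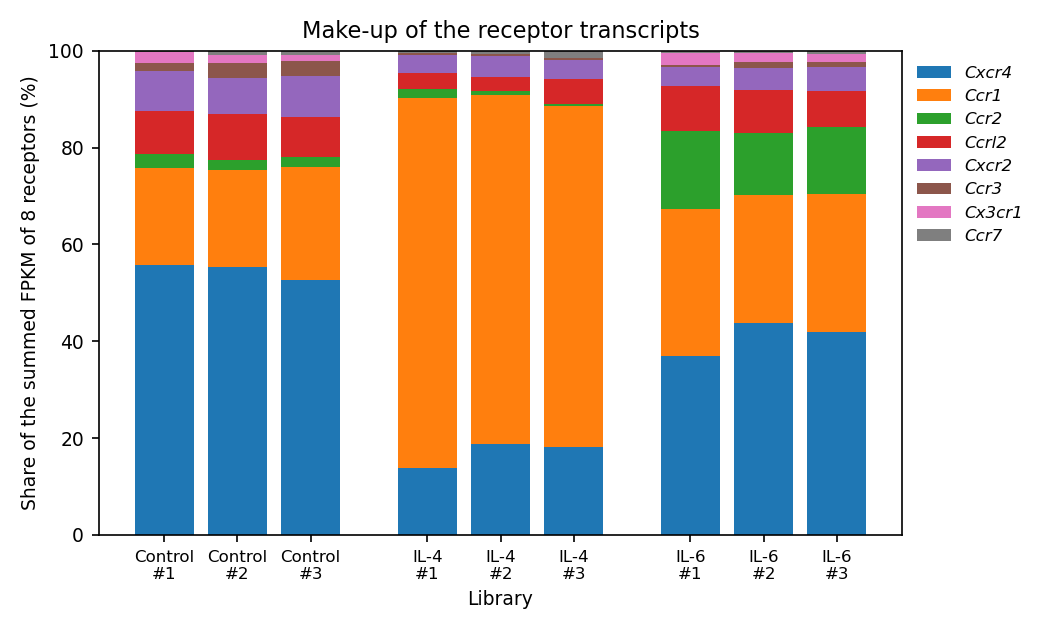
Share of each receptor in the summed FPKM of the 8, in percent, in each of the 9 libraries. Ccr1 fills 70.4 to 76.4% of the IL-4 bars and 20.1 to 23.2% of the Control bars, and the Ccr2 band is 12.8 to 16.1% of the IL-6 bars.

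Within the 4 libraries with high intestinal transcripts, IL-4 #1 had 3.69 times the Control mean of Ccr1, 0.866 of Ccr2, 0.176 of Ccr3, 0.654 of Ccr7, 0.00697 of Cx3cr1, 0.474 of Cxcr2, 0.257 of Cxcr4 and 0.370 of Ccrl2. Within the other 5 libraries, the IL-6 mean was 0.869 of the mean of IL-4 #2 and #3 for Ccr1, 44.7 times it for Ccr2, 4.61 for Ccr3, 1.29 for Ccr7, 79.4 for Cx3cr1, 2.37 for Cxcr2, 4.88 for Cxcr4 and 4.94 for Ccrl2. For the 6 receptors called between the cytokines, every IL-6 library was above every IL-4 library. A higher IL-6 mean inside this set was thus fixed in advance and is no separate support. With the set as a term in the fit, 4 receptors were called with IL-4 (Ccr3 and Cxcr2 lost), 1 with IL-6 (Ccr2, with Ccr1 and Cx3cr1 lost) and 6 between the cytokines. Of the 12824 tested genes, 1111, 187 and 3274 were called in that fit, in place of 1784, 690 and 2613. No set holds both Control and IL-6 libraries, so against Control this term rests on IL-4 #1 set beside IL-4 #2 and #3, and for IL-6 it does not separate the set from the treatment.

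Of 15 other chemokine receptor genes only 2 were abundant enough to be tested, Ccr9 and Cxcr3. Cxcr3, the receptor of interferon-induced chemokines, fell from 5.11 ± 1.10 FPKM to 0.373 ± 0.0864 with IL-4 and to 2.23 ± 0.188 with IL-6 (SD, n = 3; log2 -3.46 and -1.14, limma adjusted p = 2.07e-05 and 0.0156). Ccr9 fell by 1.73 on the log2 scale with IL-4 (limma adjusted p = 0.0117), but 2223 bases of its exons overlap other genes. Ccr1l1, Ccr4, Ccr6, Ccr8, Ccr10, Cxcr1, Cxcr5, Cxcr6, Xcr1 and Ackr1 to Ackr4 were under the filter.

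Of 21 genes for ligands of the 8 receptors, 13 were tested, and of which IL-4 moved 6 higher and 3 lower (median log2 of the 13, -0.03) and IL-6 moved 7 higher and 1 lower (median 1.06). That is 69.2% and 61.5% of the 13, against 13.9% and 5.38% of all tested genes. Beside a fall of Ccr3 with IL-4, the eotaxin Ccl24 rose from 1.99 ± 0.282 to 228 ± 46.8 FPKM (SD, n = 3; log2 6.76, limma adjusted p = 2.36e-06), whereas Ccl11 stayed near 0. With IL-6 Ccl24 fell to 0.688 ± 0.216 FPKM (log2 -1.43, adjusted p = 0.00972). The Ccr1 ligands Ccl6 and Ccl9 rose with IL-4, as Ccr1 did, from 290.2 to 2495 FPKM and from 66.3 to 586 FPKM (log2 3.11 and 3.15). Ccl3, which also binds Ccr1, and Ccl4 fell with IL-4 (log2 -1.86 and -1.51). Of the Ccr2 ligands, Ccl2 rose with IL-4 by 3.00, Ccl7 rose with IL-4 by 3.99 and with IL-6 by 1.06, and Ccl12 rose by 1.56 and 3.85, while Ccr2 was called with IL-6 and not with IL-4. Ccl12 reached 17.5 ± 2.396 FPKM with IL-6 and 3.48 ± 0.0397 with IL-4, against 1.23 ± 0.612 in Controls. Of the Cxcr2 ligands, Cxcl2, Cxcl3, Cxcl5 and Ppbp rose with IL-6, where Cxcr2 was not called, Cxcl2 by 3.57 to 24.9 ± 3.18 FPKM, and Cxcl2 fell by 1.20 with IL-4. Ccl5, which binds Ccr1 and Ccr3, rose with IL-6 by 2.93. The ligand of Cxcr4 (Cxcl12), that of Cx3cr1 (Cx3cl1), those of Ccr7 (Ccl19 and Ccl21a) and chemerin (Rarres2) were under the filter, at group means of at most 0.274 FPKM. Ccl11, Ccl28 and Cxcl1 were under it too, with Ccl28 at a mean of 0.290 FPKM with IL-4 and Cxcl1 at 0.484 FPKM with IL-6.

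**Figure D5:**
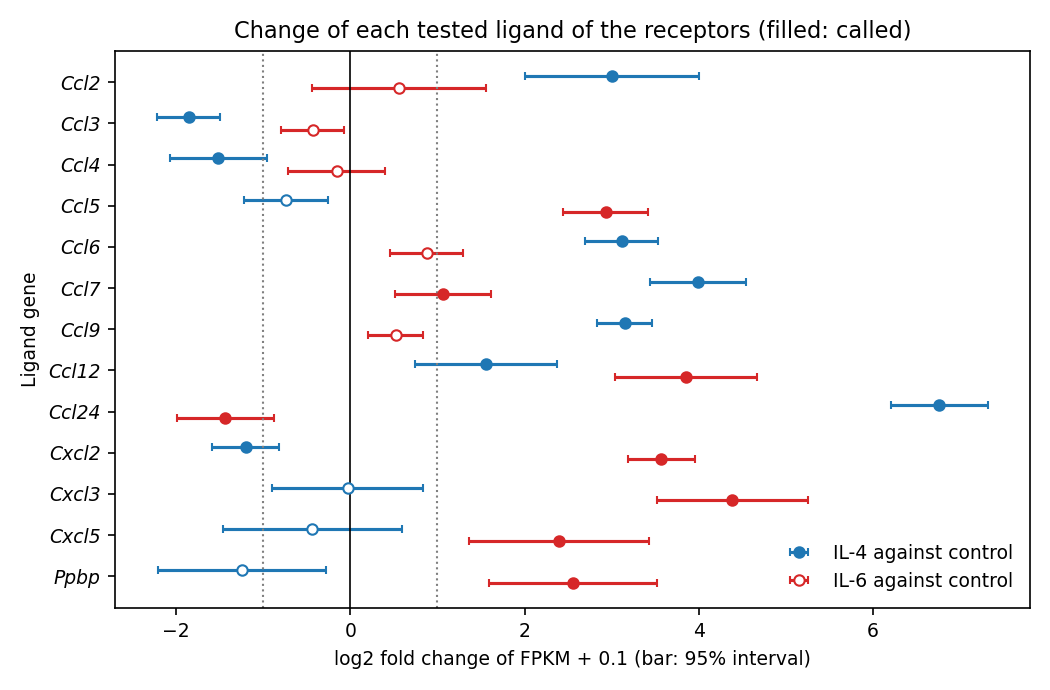
log2 fold change of FPKM + 0.1, with 95% interval, of the 13 tested ligand genes with IL-4 and IL-6 against Control, filled where called. Ccl24 lies at 6.76 with IL-4 and -1.43 with IL-6, and Cxcl2 at -1.20 and 3.57.

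Of 25 genes that act below these receptors, all tested, 1 was called higher with IL-4 and 4 lower (median log2 -0.61), and with IL-6 0 higher and 1 lower (median -0.08). These calls are 20% and 4% of the list, near the 13.9% and 5.38% of all genes. Without a threshold, 16 of the 25 lay below all Controls with IL-4 and 2 above, where 26.8% and 13.5% of all genes did. With IL-6, 7 lay above all Controls and 6 below (all genes, 20% and 23.2%). The median of all genes with IL-4 was -0.20. Between the cytokines, Gng2, Arrb2, Grk3, Grk6, Rgs18, Pik3cg, Pik3r5, Plcb2 and Plcb3 were called higher with IL-6 than with IL-4, by 1.06 to 1.94 on the log2 scale, and Rgs1 lower, which is 40% of the list against 20.4% of all genes. Rgs1, which ends G protein signals, was the gene that rose with IL-4, from 5.82 ± 1.42 to 14.9 ± 2.52 FPKM, and the gene that fell with IL-6, to 1.498 ± 0.325 (SD, n = 3; log2 1.35 and -1.88, limma adjusted p = 0.00405 and 0.00238). The 4 that fell with IL-4 were Gng2 (-1.80), a G protein subunit, Arrb2 (-1.34), an arrestin that internalizes receptors, Rgs10 (-1.06), another regulator of G proteins, and Pik3cg (-1.21), the receptor-coupled PI3 kinase.

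By the Pearson r of log2 values over the 9 libraries, which share their 3 treatments, the genes most like Ccr1 were Epas1 (0.988), Pim1 and Cass4. Most like Ccr2 were Arhgef37 (0.993), C3 and Itga2, and most like Ccr3 were Nudt4 (0.990), Vsig4 and Epor. Cx3cr1 was most like Marco (0.997), Xylt2 and Adgre4, Cxcr2 most like Ccr9 (0.993), Tsc22d1 and Siglech, and Cxcr4 most like Glul (0.997), Hdac5 and Ccdc148. Ccrl2 was most like Cxcl16 (0.998), Clec4n and AB124611. Ccr7 had no gene above 0.920 (Grhpr, then Ltb4r1 and Vamp5). These values were ranked over 12808 genes and describe these libraries.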

How the data were processed

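RNA from 9 BM-derived Mϕ libraries (stranded mRNA kit) was measured. The authors aligned reads to GRCm38 with STAR (version 2.4.2a) and deposited FPKM values that their methods credit to Cufflinks (version 2.2.1). The methods name an older GENCODE release, but 94.8% of the table's versioned gene identifiers match release M21, which was used for coordinates. Of 92556 low FPKM values, 100.0% fell on whole numbers of fragments (within 0.05) once divided by the step of their gene and library, which gave fragment counts. Intervals and floors on such counts would cover counting error only.

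Genes with a mean of at least 0.5 FPKM (12824) were fitted as log2(FPKM + 0.1) in limma 3.58.1 (R 4.3.3) with all 3 groups in a linear model (trend and robust settings) and Benjamini-Hochberg adjustment over all of them. Column names (m1 to m3) and the 3 mice of the design were taken to pair libraries of a number; their deviations correlated at 0.17 to 0.41 for IL-6 with Control, but at -0.42 to 0.52 for IL-4 with Control and -0.06 to 0.28 for IL-6 with IL-4. The reported fit has no block.

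The 8 receptors and all gene lists were chosen with earlier results of these data known. All 8 receptors are named; of the other receptors, ligands, chemerin receptors and signalling genes, those called in at least 1 comparison, up to 12 a list by size of change (for ligands, all 13 tested), and for each receptor the 3 genes of highest r. Promoter motifs were also chosen in this way. Alternatives covered pseudocount, filter, scaling, samples, replicate block, library set, voom on recovered fragments, and each library left out; the removal of length and GC trends was added after seeing the data. Some genes of the fixed lists are not reported here and were left out of the lists' counts and sums.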

Additional observations from a re-analysis of the deposited data

How the results depend on the processing

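The count of receptors called with IL-4 against Control was 5 to 7 when each library was left out in turn, that with IL-6 was 2 to 3, and that between the cytokines 5 to 6. With the replicate block, which pairs libraries by number, the counts were 6, 2 and 6, and the only call among the 8 receptors that it changed was that of Cx3cr1 with IL-6 (adjusted p = 0.0833). With the library set as a term, 1 receptor in place of 3 was called with IL-6, the Ccr7 value with IL-6 turned to -0.10, and the calls of Ccr1 with IL-6 (1.71, adjusted p = 0.0605), Ccr3 with IL-4 (-2.29, adjusted p = 0.06) and Cxcr2 with IL-4 (-1.06, adjusted p = 0.0992) were lost; in each the cause was not tested. This term rests on IL-4 #1 against the other IL-4 libraries. The Cx3cr1 call with IL-6 was lost with pseudocounts of 1 (0.85) and 0.01 (1.07, adjusted p = 0.21), with no filter (adjusted p = 0.0685) and with quantile normalization (0.97). The Cxcr2 call between the cytokines was lost with median-ratio rescaling (1.00), quantile normalization (0.97) and without IL-4 #3 (0.98). Ccr2 was called lower with IL-4 once length and GC trends were removed (-1.33, adjusted p = 0.0256). With a filter of 5 FPKM only 5 receptors were tested, and 4, 2 and 4 were called. Voom on recovered fragments called 6, 3 and 6. Over all genes the calls fell from 1784, 690 and 2613 to 847, 306 and 1219 under the filter of 5 FPKM, which tests fewer genes. With the library set as a term they were 1111, 187 and 3274, and by adjusted p alone 3186, 1077 and 4375. IL-6 calls over all genes ranged from 387 to 1001 over the libraries left out (1001 without IL-4 #3). Depth limits Ccr7, Ccr3 and, with IL-4, Cx3cr1.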
